A study of Mus musculus with 2 samples.

Results

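The reproducible far intergenic peaks are stretches of open chromatin that were found in both ATAC-seq replicates of LβT2 cells and lie far from any protein-coding gene start. ATAC-seq uses the Tn5 transposase to insert sequencing adapters into accessible DNA, and a peak is an interval in which more sequenced fragments pile up than a background model allows. LβT2 is an immortalized mouse pituitary line with gonadotrope properties. Both replicates, which are the only samples, received 4 pulses of 2 nM GnRH, given every 2 h over 6 h 45 min, and were harvested 45 min after the last pulse. They therefore describe 1 condition with n = 2, and no untreated sample was analysed here. The members were chosen by their position and by the measured summits: a peak on chromosomes 1 to 19 was kept when its summit lay within 200 bp of a summit of the other replicate, outside every GENCODE vM21 gene body and more than 50 kb from the nearest transcription start site (TSS) of a protein-coding gene. Positions were those of replicate 1, in GRCm38. This gave 6397 members, which is 10.9% of the 58519 peaks of replicate 1 and 27.9% of the 22917 peaks of replicate 1 on these chromosomes with a matching summit in replicate 2. They matched 6391 of the 64984 peaks of replicate 2. Since being found in both replicates was part of the rule, that agreement is not a finding.

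Gonadotropes are the pituitary cells that make luteinizing hormone and follicle-stimulating hormone, and GnRH is the hypothalamic peptide that stimulates them through its receptor. Distal accessible sites in mammalian genomes include enhancers, which are bound by transcription factors and act on promoters over long distances, and sites of CTCF, a zinc finger protein that organizes chromatin loops. Intergenic DNA also holds many copies of repeated sequences, and a short read from such a sequence can be placed at more than 1 position. For this reason each summit was classed by copy number, counted over both strands as the positions of GRCm38 at which its central 50 bp occur. A summit is called single-copy when there is 1 such place and multi-copy otherwise. Only exact matches in the assembly were counted. A single-copy summit can therefore still resemble other sequences, and copies that GRCm38 lacks were not seen. Per the methods, reads were paired-end and 50 bp long, and the copy count does not use the second read of a pair. A multi-copy summit is thus not shown to be one where fragments could not be placed.

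The sequences that the results below turn on are shown first. Each is the 101 bases around a replicate 1 summit on the plus strand of GRCm38, from the RefSeq assembly. Capitals mark matches to 1 of 15 motifs searched on both strands. The first set shows 3 members upstream of Fshb, which encodes the beta subunit of follicle-stimulating hormone, and 3 neighbouring members downstream of Inhbb, which encodes the beta B subunit of activin and inhibin. They are shown because they are single-copy at both summits and have gonadotrope hormone genes as their nearest coding genes.
Fshb, 59.3 kb upstream, chr2:107118889-107118989: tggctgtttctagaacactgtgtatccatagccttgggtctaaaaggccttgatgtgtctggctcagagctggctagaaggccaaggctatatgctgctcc
Fshb, 67.6 kb upstream, chr2:107127185-107127285: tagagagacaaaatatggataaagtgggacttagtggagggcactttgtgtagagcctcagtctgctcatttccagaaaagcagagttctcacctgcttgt
Fshb, 90.4 kb upstream, chr2:107150016-107150116: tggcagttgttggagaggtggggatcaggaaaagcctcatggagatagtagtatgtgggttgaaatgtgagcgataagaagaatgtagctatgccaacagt
Inhbb, 132 kb downstream, chr1:119290002-119290102: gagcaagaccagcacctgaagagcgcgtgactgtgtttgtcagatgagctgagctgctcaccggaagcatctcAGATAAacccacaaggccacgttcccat
Inhbb, 131 kb downstream, chr1:119290806-119290906: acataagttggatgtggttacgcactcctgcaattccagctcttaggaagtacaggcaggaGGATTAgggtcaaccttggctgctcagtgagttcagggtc
Inhbb, 128 kb downstream, chr1:119293912-119294012: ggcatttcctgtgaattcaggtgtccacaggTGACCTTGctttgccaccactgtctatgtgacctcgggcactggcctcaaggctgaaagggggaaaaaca
The second set shows members nearest to GnRH-induced or gonadotrope regulators.
Rgs2, 99.0 kb downstream, chr1:143904996-143905096: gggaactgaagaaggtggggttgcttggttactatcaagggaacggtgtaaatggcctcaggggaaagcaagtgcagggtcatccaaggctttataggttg
Klf4, 119 kb upstream, chr4:55651141-55651241: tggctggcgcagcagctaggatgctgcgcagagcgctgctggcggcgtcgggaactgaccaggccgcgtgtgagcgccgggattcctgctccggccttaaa
Isl1, 285 kb downstream, chr13:116018000-116018100: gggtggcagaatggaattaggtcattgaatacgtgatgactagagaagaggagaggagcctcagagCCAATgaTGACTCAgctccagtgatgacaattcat
The third set shows the highest ranked single-copy members with a CTCF, SF1 or AP1 match close to both summits, together with the single-copy member with the most tags.
CTCF match, nearest gene Olfr291, chr7:84779329-84779429: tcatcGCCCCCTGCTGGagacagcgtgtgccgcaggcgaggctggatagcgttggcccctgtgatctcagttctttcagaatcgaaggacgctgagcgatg
CTCF match, nearest gene Cp, chr3:19894782-19894882: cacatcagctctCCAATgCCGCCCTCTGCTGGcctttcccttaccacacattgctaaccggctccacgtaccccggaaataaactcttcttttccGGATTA
SF1 match, nearest gene Tas2r134, chr2:51467361-51467461: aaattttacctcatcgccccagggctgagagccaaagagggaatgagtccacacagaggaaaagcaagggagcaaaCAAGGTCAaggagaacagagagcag
SF1 match, nearest gene Gm5415, chr1:32866256-32866356: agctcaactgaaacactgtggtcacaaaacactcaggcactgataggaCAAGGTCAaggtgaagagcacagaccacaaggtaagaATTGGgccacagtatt
AP1 match, nearest gene Gdi2, chr13:3373053-3373153: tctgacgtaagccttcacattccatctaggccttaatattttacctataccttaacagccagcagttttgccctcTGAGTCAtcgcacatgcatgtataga
AP1 match, nearest gene Stk24, chr14:121435948-121436048: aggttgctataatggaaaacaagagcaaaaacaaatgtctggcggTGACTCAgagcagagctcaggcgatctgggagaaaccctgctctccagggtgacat
Most tags, nearest gene Gm8797, chr3:5860588-5860688: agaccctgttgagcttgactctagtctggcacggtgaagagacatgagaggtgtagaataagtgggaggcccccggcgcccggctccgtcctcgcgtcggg
Within these 101 bases the 3 Fshb sequences hold none of the 15 motifs. Their peaks are wider, and only 201 bp around each summit was searched, so words elsewhere in them were not seen. The third Inhbb sequence holds an SF1 match (CAAGGTCA, here on the minus strand), the binding word of Nr5a1, a nuclear receptor that gonadotropes need. The Isl1 sequence holds the AP1 word TGANTCA, bound by Fos and Jun dimers, 2 bases after the NFY word CCAAT. In the Cp sequence the SP1 and CTCF matches overlap. A match describes the letters only and was not tested for binding.

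The depth behind each peak was small. Fold enrichment and p-value, as deposited, give the count of extended tags at a summit and the background behind it, and the latter was 3.05 tags in replicate 1 and 3.54 in replicate 2. Over all peaks of a list the median summit held 14 tags in replicate 1 and 16 in replicate 2. Promoter peaks of the defining gonadotrope genes were present at Lhb, Cga and Gnrhr in both replicates, while Nr5a1 had peaks in replicate 2 only, of at most 17 tags, and Pitx1 had none within 1 kb of a TSS. The promoters of Tshb, Gh, Prl and Pomc, which mark other pituitary cells, had no peak in either replicate. A tag count does not tell apart wider opening in each cell, opening in more cells and more copies of a sequence in this line.

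The members held a median of 16 tags at the summit in replicate 1, with a range from 10 to 5908, and a median of 18 tags in replicate 2, with a range from 11 to 6906. Most were low: 3562 members, or 55.7%, held fewer than 20 tags in both replicates. At the other end, 651 members reached a −log10 q of 10 in both. Members spanned a median of 342 bp in the list of replicate 1 and 380 bp in that of replicate 2, and 48 members were 2 kb or wider. Matching summits lay a median of 54 bp apart. Members whose summits were 181 to 200 bp apart, just inside the limit, numbered 279 with a median of 15 tags, and far peaks with summits 201 to 220 bp apart, just outside it, numbered 281 with the same median. At the other limit, 182 members lay between 50 and 55 kb from a TSS and 180 matched intergenic peaks lay between 45 and 50 kb, with medians of 16 tags in replicate 1 on both sides. The share of single-copy summits, was 19% inside and 12.8% outside the first limit, and 29.7% inside and 29.4% outside the second.

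The summits of most members were made of sequence with many copies. In replicate 1, 1436 of 6397 summits were single-copy, or 22.4% (exact 95% interval 21.4 to 23.5%). In replicate 2, 1401 were, or 21.9%, and 1055 members were single-copy at both summits. The mean share over both replicates was 22.2% ± 0.387 (SD, n = 2). At the replicate 1 summits 1284 members had 2 to 10 places, 961 had 11 to 100, 1037 had 101 to 1000, 1577 had 1001 to 10000, and 102 had more, up to 20951. Windows of the same 50 bp taken 2 kb before each summit, and counted where no peak overlapped them, were single-copy in 56.5% of 5630 cases. Over 200 bp centred on the summit, 67.8% of the members were single-copy, so a longer fragment could be placed at many summits where a shorter one could not. Intervals and tests on tags or windows cover counting error only.

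**Figure D1:**
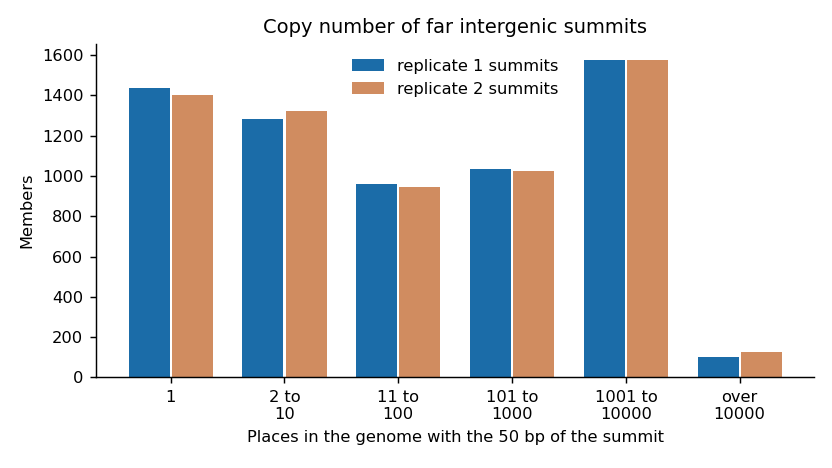
Number of far intergenic members (y axis) by the copy number of the 50 bp at their summit (x axis), at replicate 1 and replicate 2 summits. Single-copy summits number 1436 and 1401, and the class of 1001 to 10000 places holds 1577 and 1575.

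Among peaks of replicate 1 with a match in replicate 2, the single-copy share was 28.9% of 4361 intergenic peaks within 50 kb of a TSS, 37.3% of 6762 peaks in gene bodies and 93.6% of 5397 peaks within 1 kb of a coding TSS. It was 19.6% of the 10990 far peaks of replicate 1 without a match. The exact intervals of these shares did not overlap that of the members, but peaks are not replicates, and each share is a description of its list. Soft-masked sequence, which the assembly marks as repetitive or low in complexity, made up on average 84.9% of the 201 bp around member summits and 38.9% of all far intergenic sequence. In the single-copy members it made up 52.1%, and in the multi-copy members 94.3%.

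**Figure D2:**
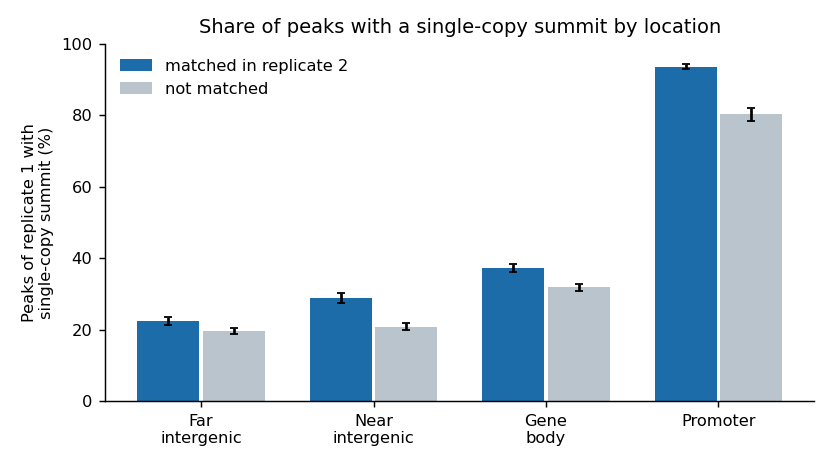
Share of replicate 1 peaks with a single-copy summit (y axis, percent, from 0) by location, for peaks with a matching summit in replicate 2 and without one; bars give the share and whiskers the exact 95% binomial interval. Far intergenic members are at 22.4% and promoter peaks at 93.6%.

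Many members shared sequence with each other. Members with a common run of 30 bases within 100 bp of their summits were joined. Simple repeats joined nothing, so members that share only such a run count as not joined. The largest connected set held 3843 members, or 60.1%, and the next held 850, while 1091 members were joined to no other. Of the single-copy members, 497 were in the largest set and 773 were joined to no other member. A single-copy summit is thus not always free of sequence shared with other members. Chains of this kind join members that do not all resemble each other. Of these runs 6 are shown because they recur at summits on all 19 autosomes, with the whole run in capitals. Each was taken as the run held by the most members that held no earlier one, so the sets can overlap: 211 of the 342 members with run 4, and 168 of the 194 with run 6, held no earlier run.
Run 1: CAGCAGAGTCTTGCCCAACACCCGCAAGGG
Run 2: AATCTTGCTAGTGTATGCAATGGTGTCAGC
Run 3: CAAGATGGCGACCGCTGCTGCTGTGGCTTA
Run 4: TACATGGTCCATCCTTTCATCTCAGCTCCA
Run 5: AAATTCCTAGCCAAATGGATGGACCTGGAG
Run 6: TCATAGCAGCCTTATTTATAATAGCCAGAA
Run 1 lay near the summit of 350 members, with the summit at a median of 7 bp from the centre of the run, along its strand, and quartiles of -44 and 54 bp. It has 6455 places in the genome, so most of its copies were not members. Run 3 was held by 319 members and has 5773 places. The members with these runs were GC-rich, with a mean GC share of 62.8% for run 1 and 64.4% for run 3, and held medians of 19 tags in replicate 1 and 22 in replicate 2. Run 2 was held by 349 members and has 27194 places, run 4 by 342 with 14132 places, run 5 by 204 with 15376 places and run 6 by 194 with 31720 places. Those 4 sets held medians of 15 tags in replicate 1 and 16 to 18 in replicate 2, close to the medians of all peaks. No member holding 1 of these 6 runs exceeded 67 tags at its summit.

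The members with the most tags were multi-copy, and most of those matched the mitochondrial genome. The highest, at chr12:97061420-97061802, held 5908 tags in replicate 1 and 6906 in replicate 2, a fold enrichment over background of 1491 ± 45.1 (SD, n = 2). Its longest identical run with the mitochondrial sequence was 242 bp. The members at chr5:60042717-60043102 (2838 and 2922 tags) and chr6:9889892-9890192 (2767 and 3092 tags) shared runs of 141 and 110 bp with it, and each had 3 places for its summit. Another member, at chr3:6049606-6049876, shared 40 bp. The remaining member among the 4 highest multi-copy members, at chr12:3109860-3110127, held 3280 and 3899 tags, had 48 places for its summit and lay 110 kb from the sequenced end of its chromosome. Whether reads of mitochondrial DNA made these peaks was not tested, since the reads were not analysed here.

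The single-copy members had somewhat more tags than the others. Their median was 17 tags in replicate 1 and 21 in replicate 2, against 16 and 17 for multi-copy members. The tag counts of the replicates ranked alike to a moderate degree across members (Spearman rho 0.628 over 1436 single-copy members and 0.535 over 4961 multi-copy members), which describes members of the same 2 libraries and carries no test. Single-copy members lay a median of 184 kb from the nearest coding TSS and all members 244 kb. The farthest of all members was 2704 kb away.

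**Figure D3:**
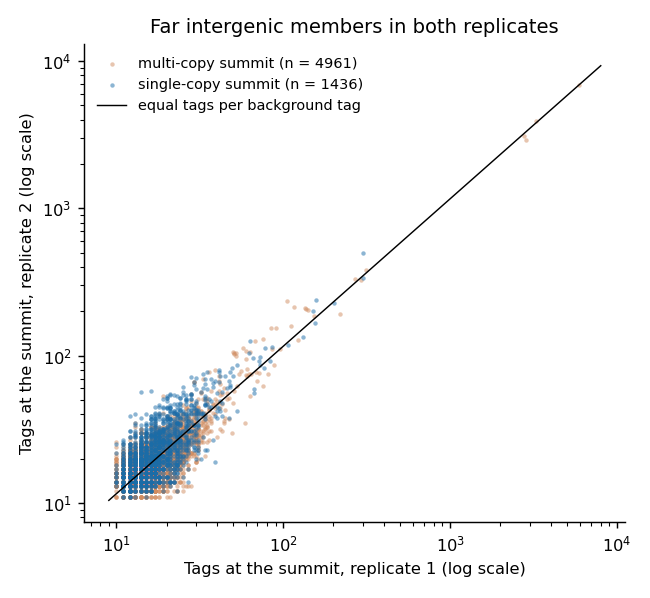
Tags at the summit of each far intergenic member in replicate 1 (x axis, log scale) and replicate 2 (y axis, log scale), with multi-copy and single-copy members in different colours and single-copy points drawn on top. The line marks equal tags per background tag; the highest point holds 5908 and 6906 tags, and most points lie at the low end.

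The highest ranked single-copy member lay at chr3:5860336-5860823, 110 kb downstream of the TSS of Gm8797. It held 300 tags in replicate 1 and 497 in replicate 2, a fold enrichment of 92.1 ± 25.1 (SD, n = 2). The sequence around its summit was GC-rich, at 63.2%, and was not soft-masked. Whether this sequence, or that of the other high single-copy members, has further copies that GRCm38 lacks was not tested. The second, at chr9:124256307-124257991, held 299 and 339 tags, and a short unit recurred within it: 72.6% of the 12-base words of its 201 bp window occurred there more than once. The same measure was 70.0% at chr16:30717430-30718189 (131 and 133 tags) and exceeded 30% at 73 of the single-copy members. Such a summit is single-copy as a 50 bp stretch although it is built of repeated units. The other 5 of the 8 highest were chr6:3200764-3201670 (158 and 238 tags), chr13:3372646-3374297 (202 and 228 tags), chr11:109011642-109012119 (151 and 200 tags), chr2:181930213-181931754 (156 and 166 tags) and chr2:3050057-3050772 (107 and 118 tags). The one on chromosome 11 lay 68.2 kb downstream of the TSS of Axin2, a negative regulator of Wnt signalling, inside a RefSeq gene body and outside every GENCODE one.

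Of the 8 highest single-copy members, 5 lay within 1 Mb of a sequenced chromosome end, and the last of them, on chromosome 2, lay 0.308 kb from it. Among the 100 highest, 12 did. In all, 46 single-copy members, or 3.20%, and 151 members, or 2.36%, lay there, while those ends held 1.19% of the far intergenic sequence. Members were spread over all 19 autosomes at 5.34 to 11.3 per Mb of far intergenic sequence, with the lowest density on chromosome 19 and the highest on chromosome 14. Single-copy members ranged from 0.859 per Mb on chromosome 10 to 3.15 per Mb on chromosome 14.

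Members were often close to each other. With a limit of 12500 bp between neighbours, 2770 members, or 43.3%, stood in 1128 groups of at least 2, and the largest held 19 members, of which 1 was single-copy, near Hrh1 on chromosome 6. Single-copy members were sparser, at 1.81 per Mb of far intergenic sequence against 8.05 for all members. A lower density leaves more members without a neighbour, and the shares were not adjusted for it. Among single-copy members taken alone, 1197 of 1436, or 83.4%, had no single-copy neighbour within the same limit. Their largest group, of 13, spanned 30.1 kb from 3008126 to 3038249 on chromosome 17, began 8.13 kb from the sequenced end and had 4 annotated pseudogenes and no coding gene within 30 kb. Its members held 12 to 73 tags in replicate 1 and 11 to 86 in replicate 2. The next, of 6, lay from 115602185 to 115624658 on chromosome 12 with 4 immunoglobulin heavy chain V genes within 30 kb, and its members held 15 to 25 and 13 to 21 tags. A group of 4 in the same V gene cluster, from 115808959 to 115826644, held 16 to 24 and 12 to 19 tags. It was tied in size with a group near Thrb on chromosome 14 (11 to 19 and 12 to 27 tags) and a group near Sstr4 on chromosome 2 (14 to 20 and 17 to 39 tags). In both V gene groups the upper end of the range was lower in replicate 2 than in replicate 1, while it was higher in replicate 2 in the other 3.

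Around single-copy summits, 11 of the 15 motifs were more frequent than in windows of the same length on either side, at 2 kb and at 5 kb, for the summits of both replicates. For 4 of them, CTCF, SF1, SP1 and the E-box, the exact intervals at the summits also lay above those of the flanks at both distances and in both replicates, and for the other 7 at least 1 pair of intervals overlapped. The summits of the 2 replicates lay a median of 44 bp apart in these members, and at most 200 bp by the rule. Their windows therefore share much of their sequence, and agreement between replicates is not separate evidence. Flanking windows that overlapped a peak were left out. The flanks were not selected by copy number, whereas the members were single-copy at the replicate 1 summit. The part of copy number in the motif differences was not tested. The share of windows with a CTCF match was 1.53% (22 of 1436; exact 95% interval 0.963 to 2.31%) at replicate 1 summits, 1.60% at replicate 2 summits and 0.188% (5 of 2655) in the flanks at 2 kb. A match to SF1 was found at 4.81% (3.76 to 6.04%) of replicate 1 summits, 5.50% of replicate 2 summits and 1.17% of flanks. SP1, whose word is GGGCGG and which binds GC-rich promoters, matched at 5.08% and 4.94% of summits and 1.54% of flanks. The E-box CAGCTG, a word of basic helix-loop-helix factors, matched at 9.96% and 9.54% against 5.65%. AP1 matched at 8.50% (7.10 to 10.1%) and 7.94% against 5.84% (4.98 to 6.80%). The cyclic AMP response element TGACGTCA was rare, at 5 and 6 of 1436 summits against 2 of 2655 flanks. The shares moved with the peaks and windows counted. Over all single-copy far peaks of replicate 1, without replicate 2, SF1 matched at 3.03% of summits and 0.816% of flanks and CTCF at 1.0% and 0.0906%. Over the 4340 members that were single-copy over 200 bp, SF1 matched at 1.71% of summits against 0.747% of flanks and the E-box at 5.94% against 4.57%, while AP1, at 4.42% against 4.86%, was no longer above the flanks.

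The PITX word TAATCC, bound by Pitx1 and other bicoid-type homeodomain proteins, matched at 8.91% and 8.29% of summits and 6.78% of flanks, and the GATA word AGATAA at 14.1% and 14.8% against 13.5%. The intervals overlapped for both words. The LHX homeodomain word TAATTA matched at 3.83% of the summits of either replicate against 6.21% of flanks. The NFY word was found at 29.7% and 30.6% against 33.8%, and the OCT word ATGCAAAT at 1.60% and 1.32% against 1.85%. The word of the immediate early factor EGR1, GCGNGGGCG, which overlaps that of SP1 in part, was seen at 1 replicate 1 summit and at no replicate 2 summit, where a limit of 3 counts in 1436 is a share of 0.209% and the exact upper bound is 0.257%. The other 3 words were too rare for a difference to be detectable, with overlapping intervals. The homeodomain word TCAGGTTTC matched at 8 and 5 of 1436 summits and 7 of 2655 flanks, and the SMAD word GTCTAGAC at 5 and 3 summits, 2 of 2655 flanks at 2 kb and 5 of 2670 at 5 kb. The NFI palindrome matched at 1 summit in each replicate and 1 of 2655 flanks. The GC share moved with these differences: its median was 47.3% at single-copy summits and 40.8% in their flanks, with a median difference of 6.22 percentage points in both replicates. The part of GC content in the motif shares was not tested.

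**Figure D4:**
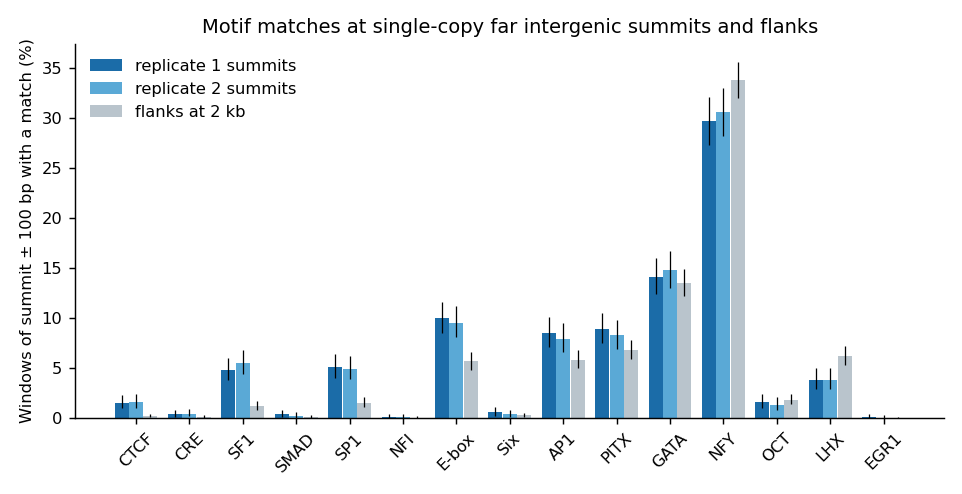
Share of 201 bp windows with a match to each of 15 motifs (y axis, percent, from 0) at single-copy far intergenic summits of replicate 1 and replicate 2 and in flanks 2 kb away; whiskers are exact 95% binomial intervals, and motifs are ordered by the ratio of summits to flanks. CTCF, at 1.53% and 1.60% against 0.188%, stands first by this ratio, and LHX lies below its flanks.

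The same motifs at single-copy summits of other locations help to place the members. The SF1 share of matched peaks at replicate 1 summits was 7.06% within 50 kb of a TSS, 8.63% in gene bodies and 1.07% at promoters, against 4.81% of the members and 1.85% of unmatched far peaks. The CTCF share was 2.54% near genes, 2.26% in gene bodies, 0.594% at promoters and 0.648% in unmatched far peaks. SP1 matched at 53.3% of promoter summits, 12.2% near genes and 7.21% in gene bodies. The AP1 share was close to that of the members near genes (8.56%) and in gene bodies (9.47%), and was 3.30% at promoters and 4.96% in unmatched far peaks. By these shares the single-copy members had fewer matches to CTCF, SF1, SP1 and E-box than single-copy peaks near genes or in gene bodies. For CTCF the exact interval of the members overlapped those of both classes. It also overlapped that near genes for SF1 and that in gene bodies for SP1. At multi-copy members, SF1 matched at 0.202% and CTCF at 0.141% of replicate 1 summits, while SP1 matched at 8.81% against 1.36% of their flanks.

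Members with a motif match differed by few tags from the others. The median at replicate 1 summits was 17 tags with and without an AP1, SF1 or E-box match, and 15 tags with a CTCF match. At replicate 2 it was 24.5 tags with AP1, 23 with SF1, 25 with an E-box, 26 with SP1 and 19.5 with CTCF, against 21 without each. Of the 246 single-copy members with a −log10 q of 10 in both replicates, 14.2% had an E-box, 9.35% an AP1, 5.28% an SF1 and 0.813% a CTCF match at the replicate 1 summit. The CTCF share rests on very few members.

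The member near Olfr291 with a CTCF match held 24 tags in replicate 1 and 48 in replicate 2 with both summits at the same base. The second CTCF example, 62.2 kb upstream of Cp, which encodes ceruloplasmin, held 23 and 34 tags. The SF1 examples held 30 and 59 tags, 160 kb upstream of Tas2r134, a taste receptor gene, and 30 and 43 tags, 319 kb upstream of Gm5415. The AP1 example on chromosome 14, 56.0 kb upstream of the kinase gene Stk24, held 24 and 38 tags. All 5 were higher in replicate 2, as single-copy members were on the whole.

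Genes of the gonadotrope list were the nearest coding gene of a member in 7 of 24 cases, and of a single-copy member in 4. Over all 20780 protein-coding genes of chromosomes 1 to 19, 8.47% were nearest to a member and 4.04% to a single-copy member. Of the 12 genes of other pituitary lineages 4 were nearest to a member and 2 to a single-copy one, and of 33 GnRH-induced genes 6 and 4. These counts depend on the width of the gene-free sequence around each gene, and the lists were chosen with results of these data known. That a member has a gene nearest to it does not show that it acts on it.

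The 3 members upstream of Fshb, whose sequences are given above, held 15, 21 and 22 tags in replicate 1 and 34, 29 and 54 in replicate 2, from the nearest to the farthest. The fold enrichment of the farthest, at chr2:107149727-107150519, was 8.90 ± 4.56 (SD, n = 2), and its summits lay at the same base. All 3 were higher in replicate 2, and none passed the test between replicates (exact binomial adjusted p from 0.149 to 1). In the wider window of 201 bp the nearest held NFY and PITX words and the farthest a GATA word at both summits. At the middle one the summits lay 81 bp apart, and the replicate 2 window held a TGACGTCA, a PITX and an LHX word that the replicate 1 window did not.

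The 3 Inhbb members lay within 3.91 kb of each other. The first, at chr1:119289359-119290424, held 45 tags in replicate 1 and 73 in replicate 2, a fold enrichment of 13.8 ± 3.51 (SD, n = 2). The second held 18 and 22 tags and the third, with the SF1 match at both summits, 29 and 34. The third and second differed little between replicates once set against the background, with folds of 7.56 ± 0.219 and 4.88 ± 0.268 (SD, n = 2). All 3 contained single-copy summits in both replicates.

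The other gonadotrope genes were Isl1, Scg2, Inhba, Otx1 and Fst. Isl1 encodes a LIM homeodomain factor and had 7 members downstream of its TSS, 2 of them single-copy, with 15 and 24 tags at 313 kb and 16 and 30 tags at 285 kb, in replicate 1 and replicate 2. The latter carries the AP1 match shown above at both summits. Scg2 encodes secretogranin II of the secretory granules and had 4 members, all downstream. Of these, 1 at 125 kb was single-copy at both summits, with 20 and 18 tags, and had GATA and E-box words. The 4 members of Inhba, which encodes the beta A subunit, and the 1 member each of the homeobox gene Otx1 and the activin-binding protein gene Fst were multi-copy at the replicate 1 summit.

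Among GnRH-induced genes, Rgs2, whose protein limits signalling by G proteins, had 2 single-copy members. That downstream, at chr1:143904717-143905449, held 40 and 42 tags, which is a fold enrichment of 9.80 ± 0.455 (SD, n = 2). That upstream, at chr1:144076142-144076342, held 14 and 38 tags. Its counts lay further apart, but it did not pass the test between replicates (exact binomial adjusted p = 0.212). Klf4, a zinc finger transcription factor gene, had 5 members upstream, 2 of them single-copy, with 16 and 37 tags at 119 kb and 13 and 22 tags at 198 kb. The sequence at 119 kb was GC-rich, with 64.7% over its 201 bp, and held none of the 15 motifs. Dusp4, which encodes a MAP kinase phosphatase, had 1 single-copy member with 15 and 17 tags. Nr4a2, an orphan nuclear receptor gene, had 3 members, of which 1 was single-copy at the replicate 1 summit only. The 3 members of Klf6 and the 2 of Jun were multi-copy and held 12 to 23 tags.

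Of the genes of other pituitary lineages, Tbx19, which encodes the T-box factor of corticotropes, had 2 single-copy members about 103 and 106 kb downstream with 18 and 40 tags and 19 and 37 tags in replicate 1 and 2. Both lay in a RefSeq gene body. Pou1f1, which encodes the factor of somatotropes, lactotropes and thyrotropes, had 3 members upstream. The single-copy one, at 149 kb, held 12 and 13 tags, close to the lowest possible, while the multi-copy one at 88.2 kb held 39 and 80. The members of Trhr and Sox2 were multi-copy.

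**Figure D5:**
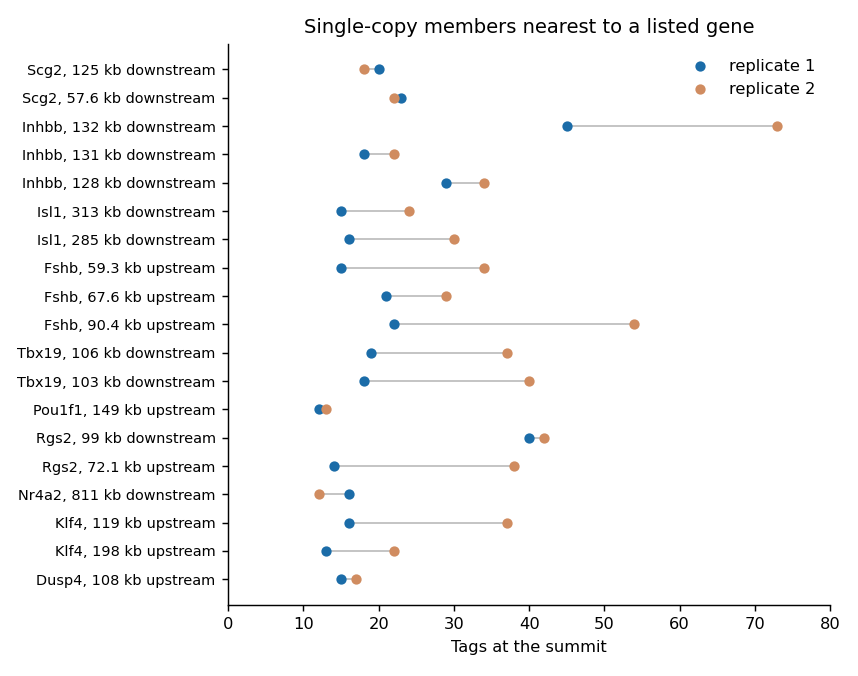
Tags at the summit (x axis, from 0) in replicate 1 and replicate 2 for each single-copy member whose nearest coding gene is in 1 of the 3 gene lists, labelled with the gene and the distance from its TSS. The Inhbb member at 132 kb is highest, at 45 and 73 tags, and most pairs are higher in replicate 2.

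The genes nearest to the most single-copy members were Pcdh17 and Scaf8 with 13 each, Zfp386 with 12, and Cntnap5b, Cobl and Pcdh9 with 9 each. Those of Scaf8 are the group at the end of chromosome 17 and 10 of those of Zfp386 the V gene groups described above. Pcdh17 and Pcdh9 are protocadherin genes, which encode cell adhesion proteins, and flank wide gene-free regions. The single-copy members farthest from a TSS were nearest to Pcdh17, at 2213 kb (27 and 17 tags) and 2176 kb (14 and 14 tags), and to Cdh20, a cadherin gene, at 2169 kb (26 and 19 tags). All 3 had soft-masked summits, and 2 of them were multi-copy at the replicate 2 summit.

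Few members differed between the replicates beyond counting error. The summit tags of each of the 22917 matched pairs were set against the ratio of the background tags in an exact two-sided binomial test with Benjamini-Hochberg adjustment over all pairs. At an adjusted p of 0.05, 6 members were higher in replicate 2 and 1 was higher in replicate 1, where 0.655% of all pairs were higher in replicate 2 and 0.0175% in replicate 1. As shares of the members these are 0.0938% and 0.0156%. Of the 150 pairs higher in replicate 2, 122 were promoter peaks. The median ratio of fold enrichments, replicate 2 to replicate 1, was 1.13 for single-copy members, 0.998 for multi-copy members and 1.44 for single-copy promoter peaks. Tag counts this low leave wide counting intervals, and a member without a call is not shown to be equal in both. The test compares 2 libraries. The paper describes replicate samples and calls samples and libraries independent. Neither the paper nor the labels state whether the libraries came from separate cultures.

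Of the 6 members higher in replicate 2, 4 were single-copy. The highest member at chr3:5860336 was among them (adjusted p = 0.00121, exact binomial test). The member 76.7 kb upstream of Chd2, a chromatin remodeller gene, held 14 and 57 tags (adjusted p = 0.00339, exact binomial test), and 75.6% of its summit window was G or C. The member 148 kb downstream of the TSS of the phosphatase gene Phlpp1 held 16 and 58 tags (adjusted p = 0.00919, exact binomial test). The last, 261 kb upstream of Ndn, which encodes necdin, held 28 and 72 tags (adjusted p = 0.0412, exact binomial test). The other 2 were peaks over 6 kb wide on chromosome 8 with 106 and 234 tags and 116 and 214 tags. The 1 member higher in replicate 1 was the match to mitochondrial sequence on chromosome 5 (adjusted p = 0.00519, exact binomial test), whose fold enrichment of 701 fell to 644 in replicate 2. This is a small ratio measured on many tags.

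Annotation of other kinds touched few members. A non-coding TSS lay within 1 kb of 115 members, or 1.80%, and of 43 single-copy members. A RefSeq gene body covered the summit of 644 members, or 10.1%, that lay outside every GENCODE gene body, among them 197 single-copy members.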

How the data were processed

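ATAC-seq was measured in 2 replicates of 1 condition. Per the methods, the authors mapped reads with Bowtie2 to GRCm38 (mm10), removed duplicates and called peaks per replicate with MACS2 using "-g dm", no model and an extension of 200 bp. Tool versions and an input control are not given in the sources used here. The deposited columns hold positions, a score, the fold enrichment as a ratio to background, and −log10 of p and q. How reads with several equal positions were placed is not given in the sources used here, and the genome setting is the fly preset, which enters the background.

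From these lists, tags at each summit were solved from fold and p (largest error in −log10 p, 0.000152). GENCODE vM21 and RefSeq annotation and the GRCm38 sequence were used, with matplotlib 3.10.9, numba 0.67.0, scipy 1.17.1, pandas 2.3.3 and numpy 2.4.6 under Python 3.11.15. Motifs were searched as exact words in 201 bp windows. Intervals are exact binomial (Clopper-Pearson, 95%). The measures were tested on simulated data.

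Named regions are the 8 single-copy and 4 multi-copy members highest by mean rank of −log10 q, the 3 single-copy members farthest from a TSS and the 3 largest single-copy groups. Named genes are those of the 3 lists that are nearest to a member and the 5 nearest to most single-copy members, with ties. The motif examples, the members called between replicates, those matching mitochondrial sequence and the largest group of all members were named after their values were seen. The members and lists were chosen with earlier results of these data known. Peaks on chromosomes X and Y and on unplaced sequences were left out.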

Additional observations from a re-analysis of the deposited data

Results flagged for a closer look

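Chromosome X was outside the rule for the members. By the same rule, it holds 796 reproducible far intergenic peaks, of which 85 have a single-copy summit. They were singled out as a signal in data that the comparisons do not use, and no control sample was analysed here.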

How the results depend on the processing

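No paired analysis was possible because both replicates belong to 1 group. The motif shares and GC differences below are those of single-copy members or peaks. Leaving out a replicate gave 17387 to 17854 far peaks, a single-copy share of 20.7 to 21.8%, a CTCF share of 1.0 to 1.57%, a GC difference of 4.98 points and 4030 to 4150 groups. With a −log10 q of 10 in both replicates, 651 members remained, with 37.8% single-copy, a CTCF share of 0.813%, a GC difference of 9.08 points and 36 groups. With summits within 100 bp the values were 24.1%, 1.67%, 6.47 points and 633 groups. Over 100 kb from a TSS they were 20.9% and 1.33%, with 4 members called between replicates in place of 7. With positions of replicate 2 they were 21.8% and 1.79%, and outside RefSeq gene bodies 21.5% and 6.47 points. With copy number over 200 bp they were 67.8%, 0.576% and 7.96 points. A window of 50 bp to each side gave 1.18% and 6.93 points, flanks at 5 kb 6.47 points, 1 mismatch a CTCF share of 4.18%, and neighbours within 5 kb 720 groups. Added after seeing the data, a summit single-copy in both replicates gave 16.5%, 2.09% and 5.72 points. The SF1 share, 4.81%, was 3.03% without replicate 2, 1.71% with copy number over 200 bp and 2.58% in the 50 bp windows. The AP1 share, 8.50%, was 4.42% and 4.32% under the last 2 settings, and the E-box share, 9.96%, was 5.94% and 5.36%. In the 50 bp windows the flanks, cut to the same length, had shares of 0.603% for SF1, 2.60% for AP1 and 2.98% for the E-box. Flanks under other settings were added after seeing the data. Each setting changes which members or windows are counted, and the cause was not tested further. The GC difference stayed above 0 in each alternative run. Leaving out the 1 Mb at the chromosome ends, also added later, moved no share and no difference by more than the spread between replicates.

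Tags limit most values: a summit of 16 tags is close to the lowest that a peak can have, and 1 condition allows no statement on GnRH.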
